A study of Mus musculus with 16 samples.

Results

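Potassium channel genes, whose mouse symbols begin with Kcn, were examined in hippocampal RNA from males of the mouse line SAM/P-8 or of its companion SAM/R-1, hybridised to 16 single-colour Agilent arrays. A gene counted as a member when the RefSeq transcript given for a non-control probe mapped to a Kcn symbol, and it was kept when, in 1 or more groups, all 4 arrays had a probe of it well above background. Of 82 Kcn genes on the array, 71 were kept, out of 13459 named genes kept in all. They were measured by 96 probes, and 65 of the 71 genes were well above background on all 16 arrays. SAM is the senescence-accelerated mouse, both lines of which were bred from AKR/J stock, SAM/P-8 being prone and SAM/R-1 resistant to early ageing. The 4 groups were SAM/P-8 mice on CCH, SAM/P-8 mice on the control diet, SAM/R-1 mice on CCH and SAM/R-1 mice on the control diet, with 4 arrays each. CCH is coral calcium hydride. From 8 weeks of age and for 8 weeks, mice of the CCH groups ate the CE-2 rodent diet with 0.1% CCH, and the control groups ate CE-2 alone. All 4 groups share sex, starting age, length of feeding and the CE-2 base diet, and a strain difference sets 1 inbred stock against another.

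Potassium channels let potassium leave the cell and so set the resting potential, end the action potential and limit how often a neuron fires. The voltage-gated Kv channels open on depolarisation, silent Kv subunits form no channel alone and modify Kv2 partners, M-current (Kcnq) channels damp repetitive firing, and calcium-activated channels produce the afterhyperpolarisation. Inward rectifiers and tandem-pore leak channels act near rest, and in the hippocampus the A-type Kv4 current and the SK2 channel are known for shaping dendritic signals and synaptic plasticity in pyramidal cells.

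All values are log2 processed signals less the 75th percentile reached by non-control probes on the same array, so 0 marks that percentile, and differences are log2 differences with their standard errors from a limma fit of a mean per group. A gene was called when the Benjamini-Hochberg adjusted p over all 29009 kept probes was under 0.05. Where a gene had several probes, the one with the highest mean over the 16 arrays stands for it. The labels number the replicates but do not state that each is its own animal, and p-values therefore reflect the spread among these arrays alone, which may be technical. Per the file headers every slide carried 1 group, which means that slide and group cannot be told apart anywhere below. Arrays had 28920 to 33333 of 43379 non-control spots well above background. Precision is limited by how many arrays there are. On all 16 arrays 6 of 6 pyramidal and 3 of 3 measured granule cell markers were well above background. So were 9 of 10 striatal and 6 of 6 choroid plexus markers, so detection alone does not test the hippocampal label. Replicate 4 of SAM/P-8 CCH stood apart. All 10 striatal and 6 of 6 oligodendrocyte markers were higher on it than on each other array, and its striatal score (the mean of the 10 markers after subtracting each marker's mean over the arrays) was 3.73, while the group's other 3 arrays lay between -0.36 and 0.05. Replicates 1 and 2 of SAM/P-8 control also stood apart, with scores of 3 red blood cell markers of 1.94 and 2.65, against at most 0.30 on every other array, and replicate 1 had Pvalb, a marker of fast-spiking interneurons, at 1.76, against at most 0.49 elsewhere. Results that change without replicate 4 of SAM/P-8 CCH, or without both SAM/P-8 control arrays high in red blood cell markers, are given both ways. In tissue RNA, fewer cells of a type and less RNA per cell cannot be told apart.

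The first question was how the hippocampi of the lines differ on the control diet. Of the 71 Kcn genes, 5 were higher and 1 was lower in SAM/P-8 relative to SAM/R-1, which is 8.45%, against 12.9% of all named genes (6.17% higher and 6.74% lower). The median difference over the Kcn genes was 0.06, against -0.01 over all genes, and 42 of 71 differences were above 0 (59.2%, against 47.1% of all genes). Both pore-forming subunits of the ATP-sensitive channels were among the higher genes. Without replicate 4 of SAM/P-8 CCH, whose spread enters the shared fit, 10 Kcn genes were called on the control diet (14.8% of all genes), and the 4 gained were Kcnd2, Kcnj4, Kcnma1 and Kcns2. Without the SAM/P-8 control arrays high in red blood cell markers the same 6 genes were called, against 7.10% of all genes.

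Kcnj11 encodes Kir6.2, the pore of the ATP-sensitive channel that couples metabolism to excitability in neurons and pancreatic beta cells. On the control diet it read -0.86, -0.98, -0.82 and -0.82 in SAM/P-8, against -1.48, -1.48, -1.74 and -1.54 in SAM/R-1. On CCH it read -0.79, -0.83, -0.53 and -0.80 in SAM/P-8, against -1.43, -1.28, -1.67 and -1.57 in SAM/R-1. All 8 SAM/P-8 arrays were above all 8 SAM/R-1 arrays. The gene was 1.61-fold higher on the control diet (0.69 ± 0.09, adjusted p = 9.08e-05) and 1.68-fold higher on CCH (0.75 ± 0.09, adjusted p = 4.22e-05). Its partner Abcc8, the sulfonylurea receptor SUR1, has no protein-coding gene between it and Kcnj11 in the RefSeq order of genes. Abcc8 differed by -0.03 ± 0.11 on the control diet and -0.22 ± 0.11 on CCH and was not called.

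Kcnj8 encodes Kir6.1, the pore of the vascular form of this channel, known from pericytes and smooth muscle. On the control diet its values were 0.15, 0.14, 0.08 and 0.00 in SAM/P-8 and -0.39, -0.40, -0.55 and -0.60 in SAM/R-1. On CCH they were 0.00, -0.08, -0.02 and 0.23 in SAM/P-8 and -0.50, -0.45, -0.27 and -0.40 in SAM/R-1. Here too no SAM/P-8 array overlapped a SAM/R-1 array. The difference was 0.58 ± 0.08 on the control diet (adjusted p = 7.87e-05) and 0.44 ± 0.08 on CCH (adjusted p = 0.00111), and its second probe differed by 0.45 ± 0.14 and 0.26 ± 0.14, called on the control diet only. Endothelial and pericyte markers moved the same way: 7 of 8 were called higher in SAM/P-8 on the control diet and 4 of 8 on CCH, with array scores of 0.15 to 0.53 for SAM/P-8, against -0.55 to -0.10 for SAM/R-1. All 8 were well above background on every array, and their part in the Kcnj8 difference was not tested. Abcc9, the SUR2 partner and itself on that marker list, was not called (-0.10 ± 0.18 on the control diet and -0.15 ± 0.18 on CCH). Abcc9 also lies next to Kcnj8 in the RefSeq order of genes.

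Among the silent Kv subunits, Kcns3 was called higher, and Kcnv1 was called on a probe that another probe contradicts. Kcns3 (Kv9.3), which modifies Kv2 channels, read -0.78, -0.65, -0.53 and -0.59 in SAM/P-8 control arrays, against -1.14, -1.39, -1.35 and -0.94 in SAM/R-1 control arrays. It was 1.48-fold higher (0.57 ± 0.11, adjusted p = 0.00212), and the groups did not overlap. On CCH, Kcns3 read -0.84, -0.72, -0.63 and -1.07 in SAM/P-8, against -1.15, -1.19, -1.32 and -1.14 in SAM/R-1, a difference of 0.38 ± 0.11 (adjusted p = 0.0279). Kcnv1 (Kv8.1) also acts on Kv2 channels and has no current of its own. On the control diet its values were -3.66, -3.24, -3.21 and -3.13 in SAM/P-8 and -3.96, -4.36, -3.93 and -3.67 in SAM/R-1. On CCH they were -3.51, -3.05, -3.04 and -2.99 in SAM/P-8 and -4.10, -4.59, -3.88 and -3.85 in SAM/R-1. SAM/P-8 was above SAM/R-1 on every array of both diets, by 0.67 ± 0.18 on the control diet (adjusted p = 0.0255) and 0.96 ± 0.18 on CCH (adjusted p = 0.00284), but a second Kcnv1 probe gave the opposite sign, as described with the probes. The Kcnv1 call on the control diet was lost on leaving out replicate 2, 3 or 4 of SAM/P-8 control or replicate 2 or 3 of SAM/R-1 control (0.54 to 0.69, adjusted p from 0.0509 to 0.0788), and the Kcns3 call on CCH was lost without replicate 1, 2 or 3 of SAM/P-8 CCH or replicate 2 or 3 of SAM/R-1 CCH (0.32 to 0.39, adjusted p from 0.0519 to 0.0821).

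Kcnn2, the SK2 channel of the afterhyperpolarisation and of dendritic spines, was lower in SAM/P-8 on both diets. Control arrays read 2.74, 2.80, 2.67 and 2.75 in SAM/P-8 and 3.18, 3.05, 3.11 and 3.32 in SAM/R-1. CCH arrays read 2.54, 2.71, 2.87 and 2.32 in SAM/P-8 and 3.1, 3.16, 3.23 and 3.28 in SAM/R-1. All SAM/P-8 values lay below all SAM/R-1 values, and the gene was 1.34-fold lower on the control diet (-0.42 ± 0.10, adjusted p = 0.00771) and 1.5-fold lower on CCH (-0.58 ± 0.10, adjusted p = 7.97e-04). Its second probe differed by -0.14 ± 0.10 and -0.13 ± 0.10 and was not called.

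**Figure D1:**
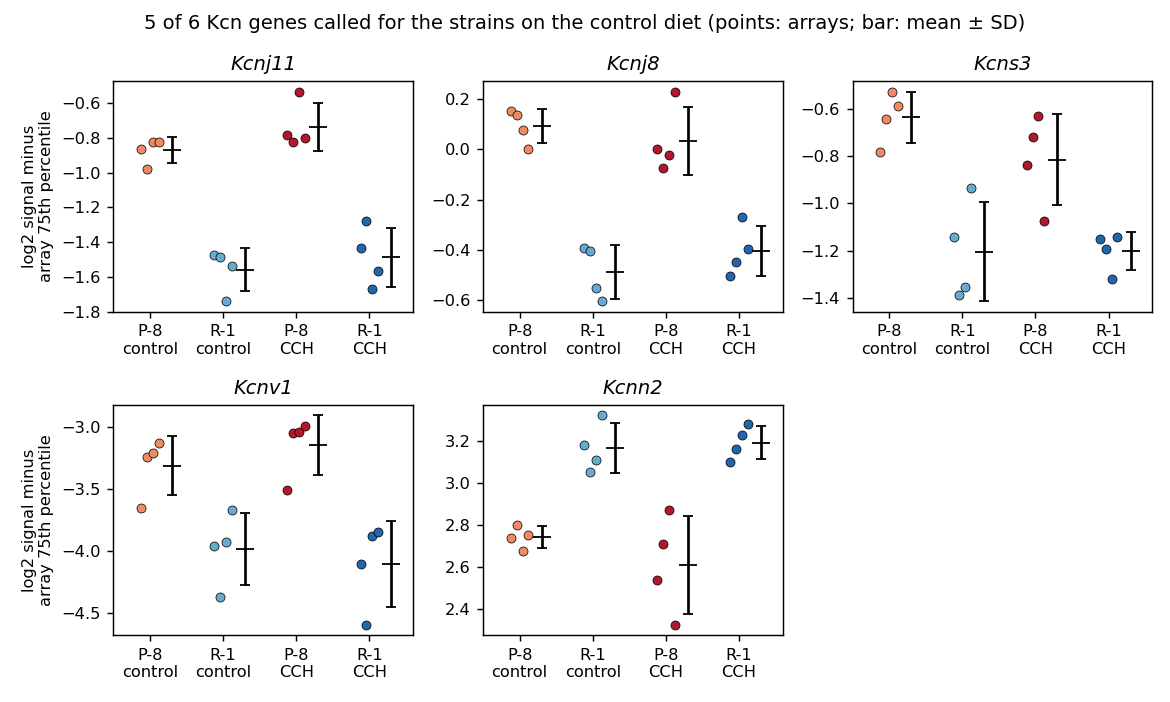
Log2 signal minus the 75th percentile of the array for 5 of the 6 Kcn genes called between the lines on the control diet, with 1 point per array, the mean ± SD beside the points, and SAM/P-8 left of SAM/R-1 on each diet. Kcnj11, Kcnj8, Kcns3 and Kcnv1 sit higher and Kcnn2 sits lower in SAM/P-8 on both diets, with no overlap between lines within a diet.

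On the CCH diet 13 of the 71 Kcn genes were called between the lines, 9 higher and 4 lower in SAM/P-8. This is 18.3%, against 12.9% of all named genes (6.15% higher and 6.79% lower). The median difference was 0.06 over the Kcn genes and -0.02 over all genes. The strain comparisons on the 2 diets share no arrays in their means, but they share the estimate of the spread per probe. The 5 genes called on both diets in the same direction, Kcnj11, Kcnj8, Kcns3, Kcnv1 and Kcnn2, are 83.3% of the 6 control diet calls and 38.5% of the 13 CCH diet calls, and 52 of 71 genes had the same sign on both diets. The matching shares over all named genes are not given here, so whether the Kcn genes agree more than other genes cannot be read from these counts. Without replicate 4 of SAM/P-8 CCH, 9 genes were called (10.6% of all genes): Kcnd3, Kcnh1, Kcnh2, Kcnk4 and Kcns2 were lost and Kcnma1 was gained. Without the SAM/P-8 control arrays high in red blood cell markers, which enter this comparison through the shared spread, 13 genes were called (13.0% of all genes), with Kcng4 in place of Kcnk4.

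Of the 8 genes called between the lines on CCH but not on the control diet, 3 belong to the EAG and ERG channels, a branch of the voltage-gated channels with roles at rest and in repolarisation. For none of the 71 genes did the strain difference itself differ between diets past the threshold, as the test of line and diet together below shows. Kcnh5 (Eag2) read -2.67, -2.79, -2.64 and -2.65 in SAM/P-8 CCH arrays, against -3.44, -3.27, -3.38 and -3.32 in SAM/R-1 CCH arrays, with no overlap (0.67 ± 0.11, 1.59-fold, adjusted p = 0.00108). Kcnh1 (Eag1) read -1.57, -1.58, -1.57 and -1.36 in SAM/P-8, against -1.78, -1.71, -1.78 and -1.66 in SAM/R-1, a small difference without overlap (0.21 ± 0.06, adjusted p = 0.0322). Kcnh2, the ERG channel known for cardiac repolarisation, read 0.04, -0.07, -0.12 and 0.02 in SAM/P-8, against -0.27, -0.63, -0.33 and -0.11 in SAM/R-1, and the groups overlapped (0.30 ± 0.09, adjusted p = 0.0452). The Kcnh1 call ended without replicate 4 of SAM/P-8 CCH or replicate 1, 2 or 3 of SAM/R-1 CCH (0.16 to 0.22, adjusted p from 0.0561 to 0.0881), and the Kcnh2 call ended in 12 of the 16 fits that leave out 1 array (0.21 to 0.33, adjusted p from 0.0528 to 0.115).

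Of the 8 two-pore-domain leak channels, 1 was called higher and 1 lower on CCH, and both are known as mechanosensitive. Kcnk2 (TREK-1) read -3.43, -3.14, -3.22 and -2.46 in SAM/P-8 CCH arrays, against -3.71, -3.69, -3.64 and -3.45 in SAM/R-1 CCH arrays, 1.47-fold higher (0.56 ± 0.15, adjusted p = 0.0259). Its highest value was on replicate 4 of SAM/P-8 CCH, and without that array the difference was 0.36 ± 0.09 (adjusted p = 0.0203). Leaving out replicate 1, 2 or 3 of SAM/R-1 CCH gave 0.53 to 0.55 with adjusted p from 0.0594 to 0.0638. Kcnk4 (TRAAK) read -0.91, -0.99, -0.70 and -1.52 in SAM/P-8, against -0.67, -0.45, -0.58 and -0.59 in SAM/R-1, so all SAM/P-8 values were lower (-0.46 ± 0.14, adjusted p = 0.0415). That call ended in 10 of the 16 fits that leave out 1 array (-0.50 to -0.29, adjusted p from 0.0514 to 0.106), the smallest difference being the one without replicate 4 of SAM/P-8 CCH. Kcnk10 (TREK-2), of the same branch, differed by -0.37 ± 0.26 (adjusted p = 0.368) and was not called.

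The remaining calls on CCH were a silent subunit, an A-type channel and a non-coding RNA. Kcns2 (Kv9.2) read -2.52, -2.22, -2.28 and -2.09 in SAM/P-8, against -2.64, -2.65, -2.66 and -2.53 in SAM/R-1 (0.34 ± 0.10, adjusted p = 0.0390), on a probe that another Kcns2 probe contradicts. Its call ended in 8 of the 16 fits that leave out 1 array (0.28 to 0.37, adjusted p from 0.05 to 0.106). Kcnd3 (Kv4.3), which carries A-type current in interneurons, read -2.47, -2.56, -2.31 and -2.75 in SAM/P-8, against -2.28, -2.22, -2.0 and -2.32 in SAM/R-1, lower with overlap (-0.32 ± 0.09, adjusted p = 0.0307). The Kcnd3 call ended without replicate 2 or 4 of SAM/P-8 CCH or replicate 2 or 3 of SAM/R-1 CCH (-0.32 to -0.24, adjusted p from 0.0598 to 0.0976). Kcnq1ot1 is a long non-coding RNA made antisense within Kcnq1 that silences neighbouring imprinted genes. It read 0.80, 0.59, 0.75 and 0.67 in SAM/P-8, against 0.98, 1.03, 1.27 and 1.03 in SAM/R-1, with all SAM/P-8 values lower (-0.37 ± 0.08, adjusted p = 0.00603). On the control diet Kcnq1ot1 stood at -0.25 ± 0.08 (adjusted p = 0.0507). Of its other 2 kept probes, one gave -0.08 ± 0.14 on CCH and was not called. The other was called (-0.62 ± 0.14) but was well above background on only 1 of 4 SAM/P-8 CCH arrays, against 4 of 4 SAM/R-1 CCH arrays, so it was kept only through SAM/R-1 and its size is not a measured fold.

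**Figure D2:**
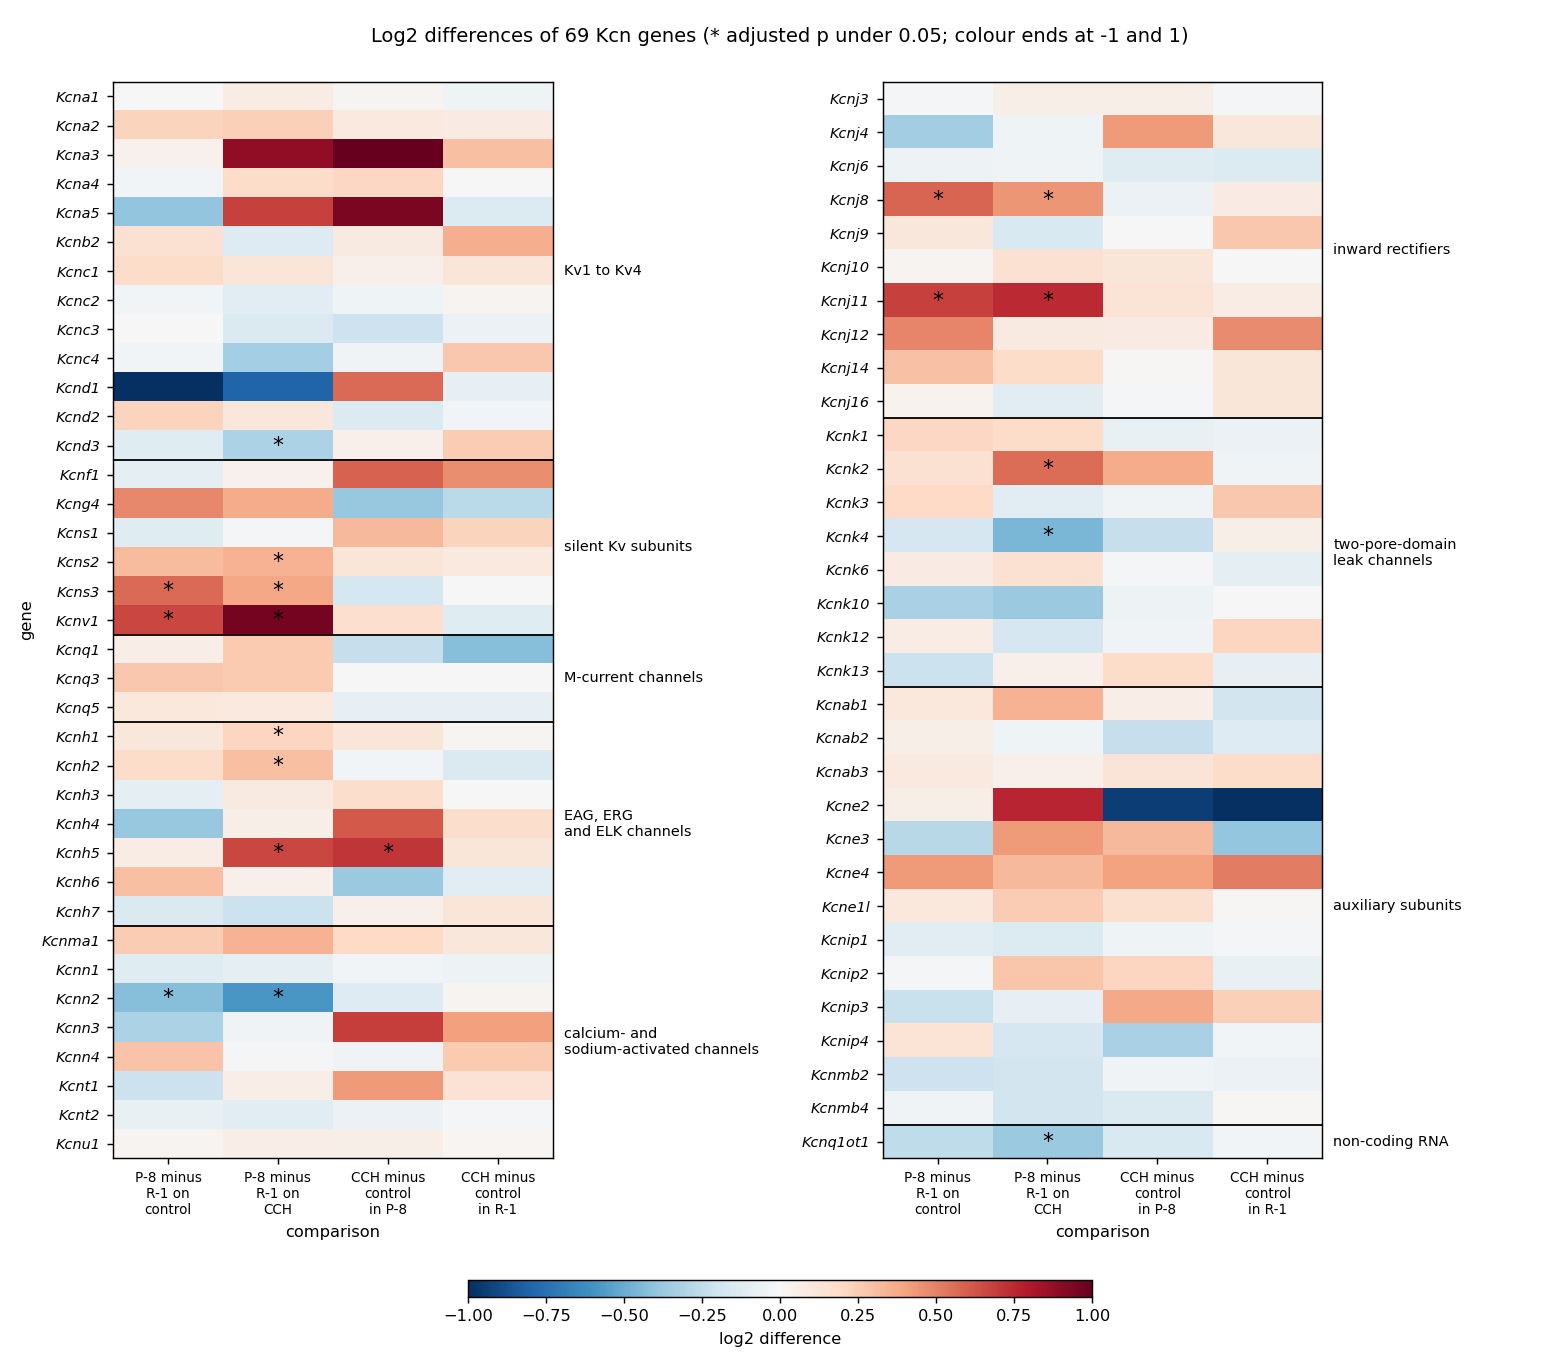
Log2 differences of 69 Kcn genes, ordered by channel class down the page, with comparisons across: SAM/P-8 minus SAM/R-1 on the control diet and on CCH, then CCH minus control in SAM/P-8 and in SAM/R-1. Stars mark adjusted p under 0.05, and the colours end at -1 and 1, which Kcna3, Kcnd1 and Kcne2 pass without a call.

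The calls between the lines are given by class as counts only, with no test between classes, beside the 12.9% of all named genes called on each diet. At an unadjusted p under 0.05 the shares of all named genes were 26.7% on the control diet and 27.7% on CCH. Among 6 silent Kv subunits, 2 were higher on the control diet and 3 on CCH, with medians of 0.40 and 0.36, but Kcnv1 on both diets and Kcns2 on CCH had another probe of opposite sign, which leaves Kcns3. Of 10 inward rectifiers the same number, 2, were called on each diet, with medians of 0.07 and 0.08. Of the 7 EAG, ERG and ELK channels limma called 0 on the control diet, where 0 also had an unadjusted p under 0.05, and 3 on CCH. Of 14 genes of the Kv1 to Kv4 families limma called 0 on the control diet (3 at an unadjusted p under 0.05) and 1 on CCH. Of 8 calcium- and sodium-activated channels 1 was lower on each diet. Of 8 leak channels limma called 0 on the control diet (1 at an unadjusted p under 0.05) and 2 on CCH. Of 13 auxiliary subunits limma called 0 on each diet, with 0 at an unadjusted p under 0.05 on the control diet and 3 on CCH.

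Some genes had the smallest p of their subfamily over the 4 groups and were called in no comparison. Kcna2, a Kv1 subunit of axons, averaged -2.08 ± 0.17 for SAM/P-8 on CCH, -2.18 ± 0.18 for SAM/P-8 on control, -2.32 ± 0.16 for SAM/R-1 on CCH and -2.40 ± 0.08 for SAM/R-1 on control (SD, n = 4 each). Kcnc1 (Kv3.1), a channel of fast-spiking interneurons, averaged 2.05 ± 0.16, 2.00 ± 0.25, 1.93 ± 0.03 and 1.81 ± 0.06 in the same order. For both genes the SAM/P-8 means lay above both SAM/R-1 means without a call between lines. For Kcnc1 the SAM/P-8 control mean leaned on replicate 1, high in red blood cell markers and Pvalb, at 2.34. The other arrays of that group read 1.73, 1.92 and 2.01, against the SAM/R-1 CCH mean of 1.93. Another kept Kcnc1 probe had strain differences of opposite sign, -0.08 ± 0.13 on the control diet and -0.13 ± 0.13 on CCH. The remaining kept probe gave 0.10 ± 0.09 and 0.09 ± 0.09, and neither was called. Kcnma1, the pore of the large-conductance calcium-activated channel, averaged -0.68 ± 0.30 for SAM/P-8 on CCH, -0.89 ± 0.10 for SAM/P-8 on control, -1.03 ± 0.10 for SAM/R-1 on CCH and -1.14 ± 0.09 for SAM/R-1 on control. Its strain difference on CCH was 0.34 ± 0.12 (adjusted p = 0.0654). Kcnk1, a leak channel, differed between the lines by 0.21 ± 0.07 on the control diet (adjusted p = 0.0594). Kcng4, a silent subunit, differed by 0.48 ± 0.27 there. Its high SAM/P-8 value, -2.18, was on replicate 1, an array high in red blood cell markers and Pvalb. The other SAM/P-8 control arrays read -3.86 to -3.72, against -3.92 to -3.72 in SAM/R-1 control. Among the sodium-activated and related channels, Kcnt1 differed by -0.21 ± 0.25 and Kcnu1 by 0.03 ± 0.09. The auxiliary subunits Kcnab2, Kcne4 and Kcnmb2 differed by 0.06 ± 0.10, 0.43 ± 0.30 and -0.21 ± 0.10, none of them called.

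The diet was the second question, asked in each line and averaged over both. In SAM/P-8 mice 1 Kcn gene of 71 was called for CCH against control, Kcnh5, which is 1.41%, against 0.869% of all named genes (0.401% higher and 0.468% lower). In SAM/R-1 mice limma called 0 of 71, against 0.0966% of all genes, and at an unadjusted p under 0.05 there were 7 Kcn genes (9.86%, against 11.4% of all genes). Averaged over the lines 5 Kcn genes were called, 3 higher and 2 lower on CCH, which is 7.04%, against 4.44% of all genes (1.58% higher and 2.85% lower). Without the SAM/P-8 control arrays high in red blood cell markers 0 Kcn genes were called in SAM/P-8 (0.0446% of all genes) and 1 on average (1.29% of all genes), and the calls lost were Kcnh5 in SAM/P-8 and Kcnf1, Kcnh5, Kcnn3 and Kcnq1 on average. The part of these markers in the diet differences was not tested. Median differences were 0.05 in SAM/P-8 (-0.03 over all genes), 0.01 in SAM/R-1 (-0.02) and 0.06 on average (-0.02). Activity-induced genes such as Fos and Arc moved with the diet: 6 of 9 were called higher on average, with array scores from -0.07 to 0.39 on CCH against -0.64 to -0.14 on control in SAM/P-8, and -0.20 to 0.65 on CCH against -0.43 to 0.01 on control in SAM/R-1. All 9 were well above background on every array, and their part in the Kcn differences was not tested.

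Kcnh5 encodes Eag2, a voltage-gated channel that opens at potentials near rest. In SAM/P-8 it read -2.67, -2.79, -2.64 and -2.65 on CCH, against -3.67, -3.46, -3.43 and -3.07 on the control diet. In SAM/R-1 it read -3.44, -3.27, -3.38 and -3.32 on CCH, against -3.20, -3.67, -3.47 and -3.57 on the control diet. The SAM/P-8 groups did not overlap, the SAM/R-1 groups did, and the 4 SAM/P-8 CCH arrays were above all 12 other arrays. CCH was 1.64-fold above control in SAM/P-8 (0.72 ± 0.11, adjusted p = 0.0125) and 1.09-fold in SAM/R-1 (0.12 ± 0.11, adjusted p = 0.731). The difference between these effects was 0.60 ± 0.16, with an adjusted p of 0.391 over all probes, so it did not pass. Averaged over both lines Kcnh5 rose by 0.42 ± 0.08 (adjusted p = 0.0178). A fit of the SAM/P-8 arrays alone gave an adjusted p of 0.122 for the same difference, and each fit that left out 1 array kept the call. Without both SAM/P-8 control arrays high in red blood cell markers the differences were 0.56 in SAM/P-8 (adjusted p = 0.109) and 0.34 on average (adjusted p = 0.0553).

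Kcnn3 and Kcnf1 rose on CCH averaged over the lines and had positive differences in each. Kcnn3 is SK3, a small-conductance calcium-activated channel. It read -4.52, -4.86, -4.88 and -4.47 in SAM/P-8 CCH, against -5.46, -5.50, -5.55 and -4.99 in SAM/P-8 control, without overlap. In SAM/R-1 it read -4.29, -4.62, -4.83 and -4.86 on CCH, against -4.68, -5.11, -5.01 and -5.45 on the control diet, with overlap. The effects were 0.69 ± 0.18 in SAM/P-8 (adjusted p = 0.0723), 0.41 ± 0.18 in SAM/R-1 (adjusted p = 0.413) and 0.55 ± 0.12 on average (adjusted p = 0.0301). One of the 4 SAM/P-8 control arrays was not well above background for it. Kcnf1 (Kv5.1) is a silent subunit of Kv2 channels. It read 0.90, 0.51, 0.87 and 0.57 in SAM/P-8 CCH, against 0.26, 0.10, -0.41 and 0.54 in SAM/P-8 control. SAM/R-1 arrays read 0.52, 0.85, 0.77 and 0.54 on CCH, against 0.22, -0.02, 0.67 and -0.05 on the control diet. Both lines had a single control array within the CCH range, and the average effect was 0.53 ± 0.14 (adjusted p = 0.0432). Leaving out 1 array ended the average call in 7 of 16 fits for Kcnn3 (0.49 to 0.56, adjusted p from 0.0518 to 0.0644) and in 12 of 16 for Kcnf1 (0.44 to 0.55, adjusted p from 0.0534 to 0.0824), including for Kcnf1 the fit without replicate 4 of SAM/P-8 CCH. Without the control arrays high in red blood cell markers the averages were 0.50 for Kcnn3 (adjusted p = 0.0860) and 0.56 for Kcnf1 (adjusted p = 0.0847).

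One of the 2 genes lower on CCH was Kcnq1, a voltage-gated channel. Kcnq1, best known from heart and epithelia, read -3.97, -3.96, -4.16 and -3.97 in SAM/P-8 CCH, against -3.65, -3.77, -3.85 and -3.87 in SAM/P-8 control. SAM/R-1 arrays read -4.30, -4.0, -4.55 and -4.25 on CCH, against -3.98, -3.73, -3.59 and -4.09 on the control diet. The SAM/P-8 groups were apart and the SAM/R-1 groups overlapped, with effects of -0.23 ± 0.12 and -0.43 ± 0.12 and an average of -0.33 ± 0.08 (adjusted p = 0.0421). The average call ended in 10 of the 16 fits that leave out 1 array (-0.34 to -0.28, adjusted p from 0.0557 to 0.0786), including the fit without replicate 4 of SAM/P-8 CCH, and it ended without the control arrays high in red blood cell markers (-0.29, adjusted p = 0.114). Without replicate 4 of SAM/P-8 CCH 5 genes were called on average (3.39% of all genes), with Kcnma1 and Kcns1 in place of Kcnf1 and Kcnq1.

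**Figure D3:**
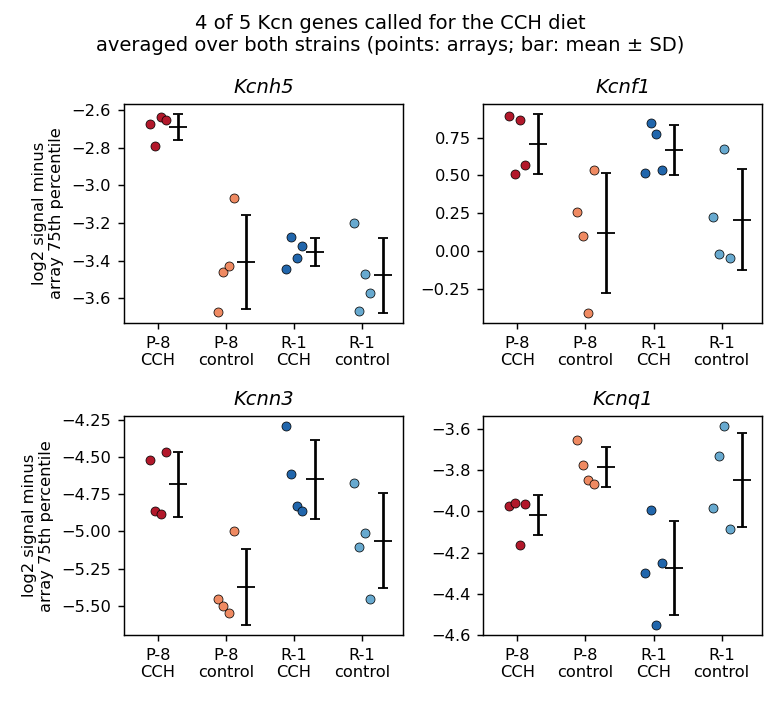
Log2 signal minus the 75th percentile of the array for 4 of the 5 Kcn genes called for CCH averaged over the lines, with 1 point per array and the mean ± SD beside the points, CCH left of control in each line. The 4 SAM/P-8 CCH arrays of Kcnh5 sit between -2.79 and -2.64, above all 12 other arrays.

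Other genes among the 5 smallest p-values for the diet did not pass. In SAM/P-8 these included Kcnip4, a KChIP that modifies Kv4 channels (-0.33 ± 0.08, adjusted p = 0.0742), and Kcnj4, the Kir2.3 inward rectifier (0.43 ± 0.13, adjusted p = 0.102), each without overlap between the groups. A second Kcnj4 probe differed by 0.60 ± 0.13 in SAM/P-8 and was called on average, where 4.42% of all probes were (0.41 ± 0.10, adjusted p = 0.0319). Both Kcnj4 probes were highest of their group on replicate 4 of SAM/P-8 CCH. They read 4.99 (the others 4.37 to 4.64) and -0.33 (the others -0.96 to -0.80). The diet differences of Kcnj4 without that array are not given here. The second Kcnip4 probe stood at -0.03 ± 0.09. In SAM/R-1 the other gene was Kcnd3 (0.25 ± 0.09, adjusted p = 0.326). For the interaction of line and diet limma called 0 of 71, against 0.134% of all genes, with 3 Kcn genes at an unadjusted p under 0.05 (4.23%, against 4.86% of all genes). After Kcnh5 its smallest p-values belonged to Kcnip4 (-0.30 ± 0.12), Kcne3 (0.71 ± 0.31), Kcnk2 (0.40 ± 0.22) and Kcnip2 (0.29 ± 0.17), with adjusted p from 0.778 to 0.929. The diet difference of Kcnk2 in SAM/P-8 was 0.37 ± 0.15, and 0.17 ± 0.09 without replicate 4 of SAM/P-8 CCH. Kcne3 and Kcnip2 were highest of their group on that array, at -4.28 (the others -4.93 to -4.77) and 1.01 (0.47 to 0.71). A second Kcne3 probe had an interaction of opposite sign, the 2 probes lying 0.86 apart. The 2 Kcnip4 probes lay 0.29 apart.

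The start-site windows of the 3 genes that rose on CCH are shown because these genes moved the same way in the same comparison. They run from 250 bases before to 50 after the start in RefSeq, build GRCm38.p6, and capitals mark the TGACG core of the cAMP response element on either strand. Kcnh5 lies at chr12:75177283-75177582 on the minus strand, Kcnf1 at chr12:17176839-17177138 on the minus strand and Kcnn3 at chr3:89519914-89520213 on the plus strand.
Kcnh5: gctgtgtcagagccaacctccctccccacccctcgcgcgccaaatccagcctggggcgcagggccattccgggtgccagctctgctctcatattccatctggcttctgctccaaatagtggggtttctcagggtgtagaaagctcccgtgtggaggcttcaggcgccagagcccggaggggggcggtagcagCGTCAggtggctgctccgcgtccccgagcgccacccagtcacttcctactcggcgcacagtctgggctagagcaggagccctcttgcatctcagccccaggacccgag
Kcnn3: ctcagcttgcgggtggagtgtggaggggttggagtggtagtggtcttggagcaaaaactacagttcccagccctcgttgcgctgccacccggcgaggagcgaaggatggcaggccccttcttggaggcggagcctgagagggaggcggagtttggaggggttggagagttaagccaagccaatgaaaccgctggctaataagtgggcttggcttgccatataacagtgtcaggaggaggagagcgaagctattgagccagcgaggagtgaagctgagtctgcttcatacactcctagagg
Kcnf1: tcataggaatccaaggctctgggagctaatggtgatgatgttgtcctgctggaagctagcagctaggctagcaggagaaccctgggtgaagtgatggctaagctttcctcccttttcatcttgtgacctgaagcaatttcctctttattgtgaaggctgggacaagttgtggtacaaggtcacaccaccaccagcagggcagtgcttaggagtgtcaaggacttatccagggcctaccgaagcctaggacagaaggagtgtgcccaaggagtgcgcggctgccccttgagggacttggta
The core was found once, in Kcnh5 on the reverse strand, beginning at base 193 of the window. The full element TGACGTCA, which contains the core, and the E-box CACGTG were found in none of these windows. Over all 32851 mouse windows of this length 20.8% held the core, 1.79% the full element and 7.15% the E-box. Of 77 windows of the 52 Kcn genes found there, 16.9% held the core, 0 the full element and 6.49% the E-box. A match describes letters in this window only.

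Probes of one gene did not always move together. Of 20 Kcn genes with several kept probes, 6 had a called probe between the lines on the control diet and 8 on CCH. Counted by probe, 11 of 96 Kcn probes were called on the control diet (11.5%, against 13.9% of all probes) and 17 on CCH (17.7%, against 13.8% of all probes). On each diet 2 of the genes with a called probe had another probe of opposite sign. The 2 genes were Kcns2 and Kcnv1, both silent subunits, and each probe was well above background on all 16 arrays. The other Kcns2 probe read -3.76, -3.81, -3.56 and -3.42 for SAM/P-8 on CCH, -3.83, -3.76, -3.53 and -3.69 for SAM/P-8 on control, -2.94, -2.87, -2.80 and -2.87 for SAM/R-1 on CCH and -2.87, -3.15, -3.05 and -2.91 for SAM/R-1 on control. It was lower in SAM/P-8 without overlap, by -0.71 ± 0.09 on the control diet (adjusted p = 7.24e-05) and -0.77 ± 0.09 on CCH (adjusted p = 3.69e-05), where the probe that stands for the gene was higher by 0.32 ± 0.10 and 0.34 ± 0.10. The other Kcnv1 probe read -4.60, -4.02, -4.26 and -4.12 in SAM/P-8 control, against -3.75, -4.01, -3.72 and -3.46 in SAM/R-1 control, lower by -0.51 ± 0.13 (adjusted p = 0.0190), and on CCH it differed by -0.40 ± 0.13 (adjusted p = 0.0634). No direction for either gene as a whole follows from these values. With the mean of its probes Kcns2 stood at -0.21 on CCH (adjusted p = 0.134) and Kcnv1 at 0.08 on the control diet and 0.28 on CCH (adjusted p = 0.801 and 0.263). For Kcnd2 (Kv4.2), the A-type channel of pyramidal dendrites, the second probe was called higher in SAM/P-8 on both diets (0.37 ± 0.09 and 0.45 ± 0.09) while the one that stands for the gene was not (0.22 ± 0.09 and 0.11 ± 0.09). For Kcnip3, a calcium-binding partner of Kv4, the second probe was called lower on the control diet (-0.30 ± 0.09) and the other was not (-0.23 ± 0.14). Probe sequences were not used here.

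**Figure D4:**
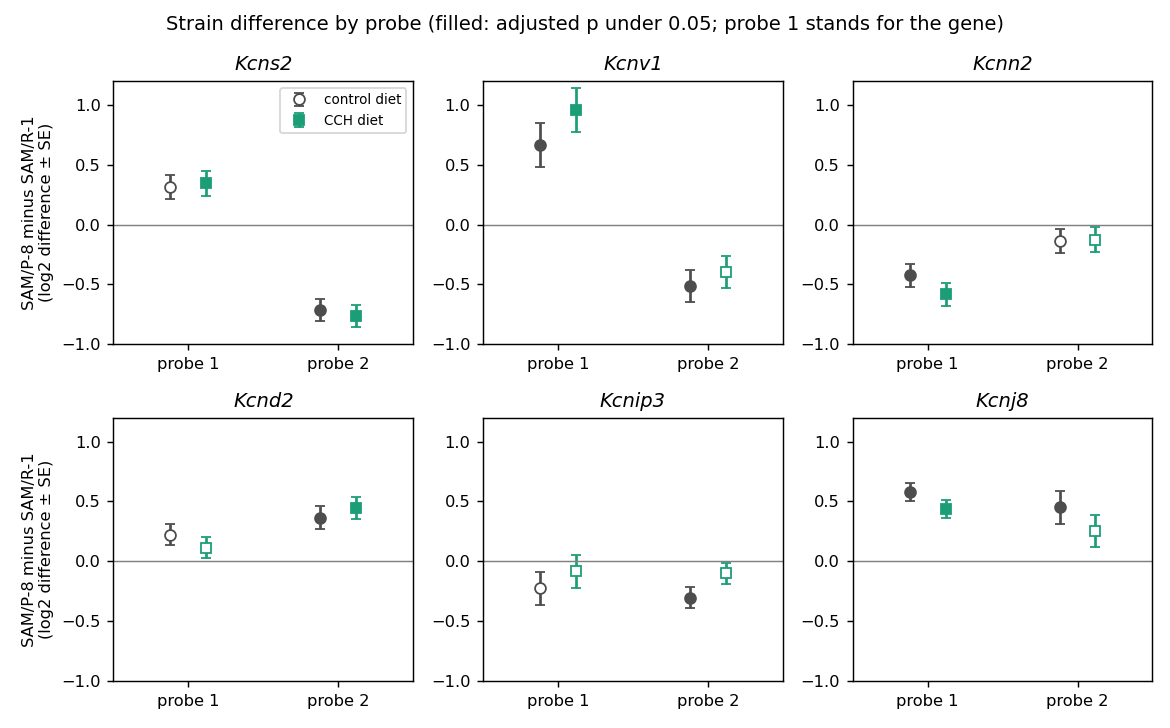
SAM/P-8 minus SAM/R-1 as log2 difference ± SE for each kept probe of 6 Kcn genes, circles for the control diet and squares for CCH, filled where the adjusted p is under 0.05. Probe 1 stands for the gene. The probes of Kcns2 and Kcnv1 lie on opposite sides of 0.

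Some Kcn genes were near the limit of detection. Kcna3 (Kv1.3), known from lymphocytes and microglia, was well above background on 4 SAM/P-8 CCH arrays and 0 SAM/P-8 control arrays. It read -5.77, -5.74, -2.92 and -5.71 in SAM/P-8 CCH, against -6.49, -5.87, -6.20 and -6.15 in SAM/P-8 control. The measured means were -5.03 and -6.18 (adjusted p = 0.223), and the gene was kept only through SAM/P-8 CCH. The dimmest signals still well above background on the control arrays averaged -5.64, and without the array at -2.92 the CCH mean was -5.74, below that limit, so no fold is given. Kcnd1 (Kv4.1) was well above background on 0 of 4 arrays in each SAM/P-8 group, 4 of 4 in SAM/R-1 CCH and 2 of 4 in SAM/R-1 control, and it was kept only through SAM/R-1 CCH. On CCH its measured means were -6.59 in SAM/P-8 and -5.79 in SAM/R-1 (adjusted p = 0.394). Without SAM/R-1 CCH replicate 3, at -4.72, the SAM/R-1 mean was -6.15, below the SAM/P-8 limit of -6.00, so no fold is given here either. On the control diet its fit used 3 SAM/R-1 arrays, because 1 value was missing. The 11 genes left out as dim, among them Kcne1, Kcng3, Kcnh8, Kcnj1, Kcnj2, Kcnj5, Kcnj15, Kcnk5, Kcnmb1 and Kcnv2, were each well above background on at most 6 arrays. Kcng3, Kcnh8 and Kcnj2 came closest to being kept, with 3 of 4 SAM/R-1 CCH arrays.

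Kcne2, an auxiliary subunit that works with Kcnq1 in the choroid plexus, varied widely between the arrays of each group. It read 1.42, 1.42, -3.97 and 1.38 for SAM/P-8 on CCH, 1.53, 2.43, 1.81 and -1.77 for SAM/P-8 on control, 1.69, -3.67, -2.50 and 1.69 for SAM/R-1 on CCH and 1.82, 2.10, 0.94 and -1.08 for SAM/R-1 on control. Its low arrays were replicate 3 of SAM/P-8 CCH, replicate 4 of SAM/P-8 control, replicates 2 and 3 of SAM/R-1 CCH and replicate 4 of SAM/R-1 control, at least 1 in every group. On those arrays the score of 6 choroid plexus markers was also low, at -3.03, -1.95, -2.71, -2.13 and -1.25, though all 6 markers were well above background on every array. Kcne2 was called in no comparison.

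Other Kcn genes stood out on replicate 4 of SAM/P-8 CCH, the array with high striatal markers. Kcna5, Kcnh4 and Kcnt1 were above each of the other 3 arrays there and more than 1 log2 unit above their mean, and 0 of 71 were as far below. Kcna5 (Kv1.5) read -3.43, -4.21, -3.97 and -1.41 in SAM/P-8 CCH, against -4.05, -4.30, -4.46 and -3.99 in SAM/P-8 control, and its difference was 0.94 ± 0.46 with that array and 0.33 ± 0.26 without it. Kcnh4, an ELK channel, read -5.52, -6.01, -5.26 and -3.67 in SAM/P-8 CCH, against -5.79, -5.23, -6.42 and -5.47 in SAM/P-8 control, a difference of 0.61 ± 0.41 with the array and 0.13 ± 0.30 without it. Kcnh4 was well above background on 3 of 4 SAM/P-8 CCH arrays and 1 of 4 SAM/P-8 control arrays and was kept only through SAM/R-1 CCH, which limits what its differences measure. Neither gene was called in either fit.

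**Figure D5:**
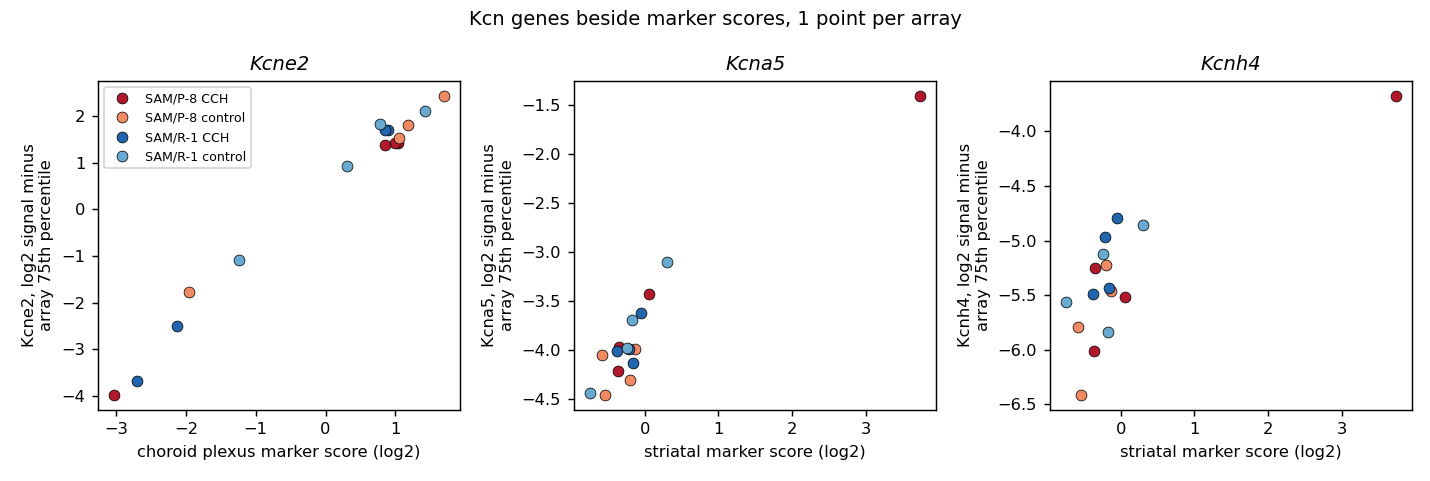
Kcne2 against the choroid plexus marker score, and Kcna5 and Kcnh4 against the striatal marker score, all on log2 scales with 1 point per array and colours by group. The 5 arrays with the lowest choroid score hold the 5 lowest Kcne2 values, and 1 SAM/P-8 CCH array with a striatal score of 3.73 holds the highest Kcna5 and Kcnh4 values.

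Partners of potassium channels and other genes that handle potassium were also listed. Of 33 listed, 28 were measured. On the control diet 1 was called higher and 2 were lower in SAM/P-8, and the same numbers were called on CCH, which is 10.7% on each diet, against 12.9% of all named genes. Amigo1, an auxiliary protein of Kv2 channels, was lower on both diets (-0.35 ± 0.07 and -0.25 ± 0.07, adjusted p = 0.00325 and 0.0271). Hcn4, a pacemaker channel, was lower on the control diet (-0.58 ± 0.18, adjusted p = 0.0431). Cntnap2, which clusters Kv1 channels beside the nodes of axons, was lower on CCH (-0.28 ± 0.05, adjusted p = 0.00226). For the diet, limma called 0 of 28 in SAM/P-8, in SAM/R-1, on average and for the interaction. At an unadjusted p under 0.05 there were 4 of 28 in SAM/P-8 (against 19.0% of all named genes) and 2 in SAM/R-1 (against 11.4%). On average there were 5 (against 24.7%), and for the interaction 2 (against 4.86%). Among the smallest p-values were those of Cntnap2 (-0.14 ± 0.05) in SAM/P-8, of Hcn4 (-0.49 ± 0.18) and Amigo1 (-0.18 ± 0.07) in SAM/R-1, of Vapb, which clusters Kv2 channels (-0.09 ± 0.03), and Amigo1 (-0.13 ± 0.05) on average, and of Hcn4 (0.71 ± 0.25) for the interaction.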

How the data were processed

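Each deposited array file gives an intensity per spot, the processed signal, made by the authors with Agilent Feature Extraction 9.5.3.1 per the file headers, together with median spot and local background intensities and flags (of unit other, per the file headers) that mark saturated or non-uniform spots and those well above background. The authors' deposited value table is on a log2 scale, centred per probe by a step not given in the sources used here; it served as an alternative.

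Groups came from the labels. The processed signal was taken as log2 minus the 75th percentile of each array, 187 non-uniform spots were left out, and replicate spots were averaged. The filter kept 29009 of 41174 non-control probes. Before that filter, RefSeq accessions named 24844 of the 41174 probes and left 16330 unnamed. Unnamed probes that passed the filter were tested without a name. Array coordinates use another build than the RefSeq tables, so they are not given. The positions of the start-site windows and the order of neighbouring genes come from RefSeq. Group means over 16 arrays were fitted with limma 3.58.1 (R 4.3.3), with 12 residual degrees of freedom, 6 contrasts and Benjamini-Hochberg adjustment over the kept probes, two-sided, and was tested on simulated data. All P-values in the text come from it.

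Per contrast, called Kcn genes were named, up to 15 each way, or the 5 with the smallest p where fewer than 5 passed. Also named were the gene with the smallest p of each subfamily, Kcnh5, genes with probes of opposite sign, genes not well above background in a group, and called partners or the 2 with the smallest p. Some genes are not reported here by name but stay in the counts. Others, such as Kcna5, Kcne2, Kcnh4 and Kcnk10, were named after their values were seen. Members, lists and tests were chosen with earlier results of these data known. Alternatives changed the scaling, normalization, background correction, filter, values, samples in the fit, block, probe rule and arrays left out.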

Additional observations from a re-analysis of the deposited data

Results flagged for a closer look

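Of 127 groups of 4 arrays tested, over the Kcn genes named by rule, 14 had 1 array far from the other 3. Chance alone marks about 1 in 20 groups. In each of the 14, the distance to the nearest other array, as a share of the group's range, was above Dixon's critical value. Genes named after their values were seen, such as Kcne2, were not in this test. All values are log2 signals minus the 75th percentile of the array.

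In SAM/P-8 CCH, replicate 3 was highest for Kcna3 at -2.92 (the others -5.77 to -5.71) and for Kcnj11 at -0.53 (the others -0.83 to -0.79), and lowest for Kcnq1 at -4.16 (the others -3.97 to -3.96). Replicate 4 of that group was highest for Kcne4 at -3.89 (the others -4.73 to -4.67) and for Kcnh1 at -1.36 (the others -1.58 to -1.57). Replicate 1 was lowest for Kcnv1 at -3.51 (the others -3.05 to -2.99).

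In SAM/P-8 control, replicate 4 was highest for Kcnn3 at -4.99 (the others -5.55 to -5.46). Replicate 1 was highest for Kcng4 at -2.18 (the others -3.86 to -3.72).

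In SAM/R-1 CCH, replicate 4 was highest for Kcnc1 at 1.98 (the others 1.91 to 1.92) and for Kcns2 at -2.53 (the others -2.66 to -2.64), and lowest for Kcnma1 at -1.18 (the others -0.99 to -0.97). Replicate 3 was highest for Kcnmb2 at -2.54 (the others -2.78 to -2.75) and for Kcnq1ot1 at 1.27 (the others 0.98 to 1.03). In SAM/R-1 control, replicate 3 was lowest for Kcna2 at -2.52 (the others -2.37 to -2.35).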

How the results depend on the processing

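Of 25 calls of single Kcn genes, 8 were kept under every alternative run: Kcnj11 and Kcnj8 between the lines on both diets, Kcns3 on the control diet, and Kcnn2, Kcnh5 and Kcnq1ot1 on CCH. Leaving out both SAM/P-8 control arrays with high red blood cell markers, chosen after seeing the data, gave 0 calls for CCH in SAM/P-8 and 1 on average. A fit of only the groups compared gave 7 calls between the lines on CCH and 0 for CCH in SAM/P-8. Leaving out 1 array gave 4 to 10 calls between the lines on the control diet and 6 to 14 on CCH, 1 to 2 for CCH in SAM/P-8 and 1 to 7 on average; it gave 0 in SAM/R-1 and 0 for the interaction throughout. The calls between the lines on CCH were 6 without replicate 3 of SAM/R-1 CCH and 7 without its replicate 2, and those on average were 1 without replicate 2 or 3 of SAM/P-8 control. Median scaling split the calls on CCH as 5 higher and 4 lower in SAM/P-8, and normexp with quantile normalization split those on the control diet as 4 and 3. With the mean of its probes Kcns2 turned to -0.21 on CCH, where its probes differ in sign. Over all named genes the calls for CCH in SAM/P-8 numbered 117, against 49 with median scaling and 6 in the fit of the groups compared; on average they numbered 597, against 244 with median scaling and 1469 with no filter; in SAM/R-1 they numbered 13, against 7 with normexp and 23 with gene means. Leaving out 1 array moved these counts to 19 (without replicate 3 of SAM/P-8 control) and 204 (without its replicate 1) in SAM/P-8, to 124 and 1065 without the same arrays on average, and to 1 without replicate 3 of SAM/R-1 control in SAM/R-1; the percentages over all genes move with them. The cause was not tested for the scalings. With the replicate number as a block, 3 Kcn genes were called on average and 10 between the lines on CCH. After subtracting group means, arrays of the same number in 2 groups correlated over 0.1 in 6 of 24 pairs (-0.25 to 0.30). In 6 of the 24 pairs the same number correlated better than any other array of the second group. The numbers were therefore not taken to pair samples. Signals near background limit Kcna3, Kcnd1 and Kcnh4.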
